A study of Mus musculus with 16 samples.

Results

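Peptide hormones and neuropeptides are short secreted signals that specialized endocrine and nerve cells release to act on distant or neighbouring cells. The members described here were 43 mouse genes that encode the precursors of these signals. The rule that finds them uses gene names and no measured value. All 43 were present in the count table, which has 89407 rows, of which 53464 are Ensembl genes. By their best known source the members comprised 7 pituitary hormones, 12 hormones of the gut and pancreas, 13 hypothalamic and brain neuropeptides, 3 precursors of opioid and tachykinin peptides, 6 hormones of calcium balance, heart and vessels, and 2 gonadal hormones.

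The study used poly(A) RNA sequencing to ask what the splicing factors RBFOX1 and RBFOX2 do in medullary thymic epithelial cells (mTEC). There were 8 mice of 4 genotypes with 2 mice each. Thymus knockout (tKO) mice of the Rbfox1 line were Rbfox1 lox/lox with 1 Foxn1 cre allele, so that Cre is made in thymic epithelial cells from the Foxn1 locus. The control mice of that line carried the same Rbfox1 lox/lox alleles with 2 wild-type Foxn1 alleles. The Rbfox2 line was built in the same way with Rbfox2 lox/lox alleles in its tKO and control mice. Each pair of mice held 1 male and 1 female. The labels give an age between 4 and 6 weeks and the strain C57BL/6, and the study's methods describe a mixed background with 129S2/Sv. From each mouse mature mTEC (MHCII high) and immature mTEC (MHCII low) were sorted as CD45-, EpCAM+, Ly51- and UEA+ cells, with 10000 cells per population, which gave 16 libraries. Library totals lay between 3737884 and 4636367 counts in mature and between 1506134 and 2430287 counts in immature mTEC, so that low genes were counted less precisely in immature mTEC.

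Peptide hormones are made as longer precursors that enter the secretory pathway and are cut and modified in secretory granules. In the thymus, mature mTEC transcribe many genes that otherwise belong to single peripheral tissues, hormone genes among them, which is known as promiscuous gene expression. Developing T cells are exposed to the resulting peptides and those that react strongly are deleted or diverted. The nuclear regulator Aire drives a large part of this transcription, and Fezf2 is a further factor that acts on other genes.

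The population labels were checked against markers. Aire was called higher in mature mTEC of control mice by 3.09 ± 0.24 on the log2 scale (standard error, SE), and Cd80 and Cd86, which encode costimulatory molecules, by 3.36 and 4.95. Fezf2 rose by 1.28 ± 0.10. The other 2 of the 6 mature markers stayed under the fold threshold, with 0.87 ± 0.05 for H2-Aa, a gene of the MHCII proteins used in the sort, and 0.51 ± 0.08 for Tnfrsf11a. Of the immature markers, Krt5 (a basal keratin) fell by 2.86, Pdpn by 3.18 and Itga6 by 1.06. Ccl21a, a chemokine gene with near-identical copies, held 0 counts in the control mature libraries and at most 5 in an immature one. Rbfox2 counts fell in Rbfox2 tKO mice, by 2.14 on the log2 scale in mature (adjusted p = 1.31e-06) and by 1.69 in immature mTEC (adjusted p = 5.26e-04, edgeR quasi-likelihood test with Benjamini-Hochberg adjustment). Rbfox1 counts did not pass the test in Rbfox1 tKO mice, with a log2 difference of -0.66 ± 0.14 (SE) in mature and -0.09 ± 0.11 in immature mTEC. These are counts over the whole gene, and whether the deleted exons were lost from Rbfox1 transcripts was not tested. The Rbfox1 genotypes are therefore used as the labels give them.

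Calcb, which encodes the beta form of calcitonin gene-related peptide, a vasodilator of sensory nerves, was by far the most abundant member in mature mTEC. Levels are given as CPM, normalized counts scaled to library size, which do not correct for gene length. In mature mTEC of control mice, Calcb had 645 and 716 CPM in the Rbfox1 line and 632 and 623 CPM in the Rbfox2 line. In their immature mTEC it had 76.2 and 105 CPM in the Rbfox1 line and 24.4 and 32.9 CPM in the Rbfox2 line. The groups were thus far apart in every mouse, and the immature level also separated the lines. Per kilobase of exon, Calcb ranked 35 among 21865 protein-coding genes in mature mTEC of control mice, with 517 CPM per kb. Next among the members came Pyy, a satiety hormone of the gut, at rank 430, then Calca (calcitonin and the alpha form of the same peptide) with 78.0 CPM per kb and Nts (neurotensin) with 74.0. Calcb and Calca are related genes on chromosome 7 (GRCm38 114718643 to 114723365 and 114631478 to 114636357), and reads from their similar exons may be split between them.

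Calcb counts made up 36.1% to 41.0% of all member counts in the mature libraries and 8.21% to 26.1% in the immature ones. All members together held 1505 to 1836 CPM of the library total in mature libraries, whereas the immature ones held 278 to 438 CPM. In mature mTEC of control mice, 3 members had a mean of 100 CPM or more (Calca, Calcb and Adm), 21 had 10 to 100 CPM, 12 had 1 to 10 CPM and 7 had less than 1 CPM. The 7 least abundant included the pituitary hormones Prl and Fshb, with means of 0.342 ± 0.397 and 0.319 ± 0.508 CPM (SD, n = 4). Insl3, a hormone of Leydig cells, had 0 counts in all 16 libraries. On the annotation, 404 of its 623 exon bases also lie in exons of Jak3 on the same strand. Similar overlaps with another gene's exons, on the opposite strand, cover 61.5% of the exon bases of Nppa, 58.1% of Pmch, 32.0% of Cga and 20.4% of Lhb. The strand setting of the counting is unknown here, so reads of these genes and their partners may be mixed.

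**Figure D1:**
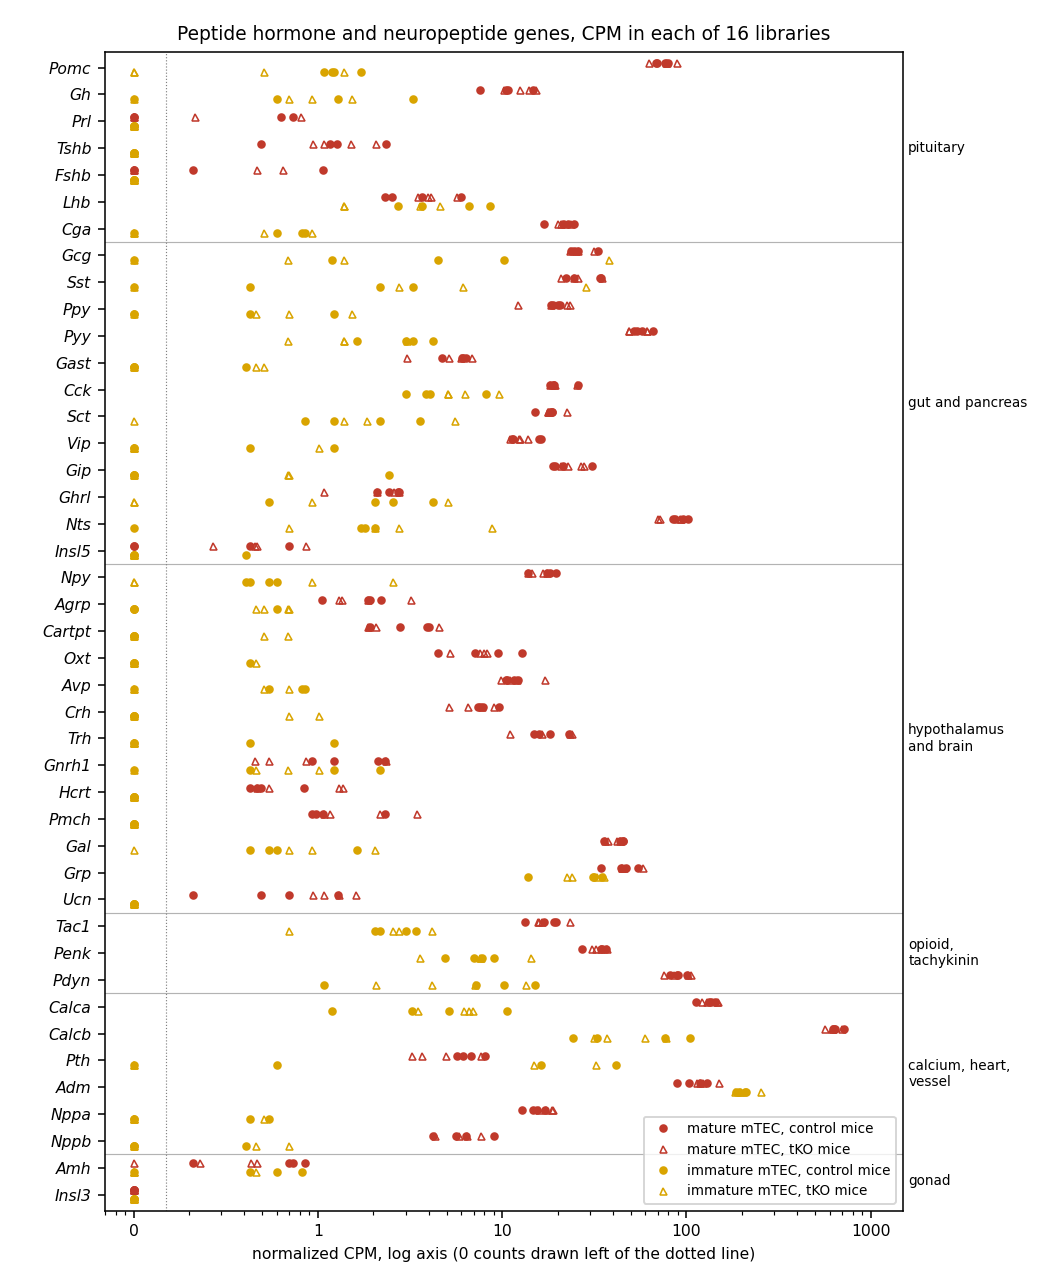
Normalized CPM (log axis) of the 43 members in each of the 16 libraries, with 1 point per library, red for mature and yellow for immature mTEC, filled circles for control and open triangles for tKO mice. Calcb lies farthest to the right in mature mTEC, Adm is higher in immature mTEC, and Insl3 has 0 counts throughout.

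The question of the first comparison was how the members differ between mature and immature mTEC of the same mice. In control mice, 30 members passed the filter on low counts and 26 of them were called higher in mature mTEC (a call needed an adjusted p under 0.05 together with a log2 fold change beyond 1 or -1). Over all genes tested, 23.7% were called higher and 10.8% lower. Of the members 0 were called lower by edgeR at this threshold. The median log2 fold change was 4.42 over the members tested and 0.02 over the 15357 genes tested. Most members passed the filter only because they are counted in mature mTEC, so this count and median describe the members and are no separate evidence. Only Calcb, Penk, Grp and Adm had at least 10 counts in all 8 control libraries, and of these 4, Calcb and Penk were called higher. Over all 42 members with a count, whatever their level, 32 were higher in all 4 mature than in all 4 immature libraries of control mice, beside 20.7% of all genes with a count. Adm alone was lower in all 4 mature libraries, beside 9.7% of all genes, and 9 members overlapped. In bulk RNA, fewer expressing cells and less RNA per cell cannot be told apart.

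The tKO mice gave a second set of libraries that shares none with the controls. Here 25 of 29 members tested were called higher and 0 lower, beside 23.2% and 11.5% of all genes. Again 32 of 42 members did not overlap and were higher in mature mTEC, beside 20.2% of all genes, and Adm alone was lower in all 4, beside 9.03%. The 9 overlapping members differed in part between the sets, with Gcg and Sst overlapping in tKO mice, and Grp and Insl5 in control mice. The medians over the members tested were 3.99 in tKO and 4.42 in control mice.

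**Figure D2:**
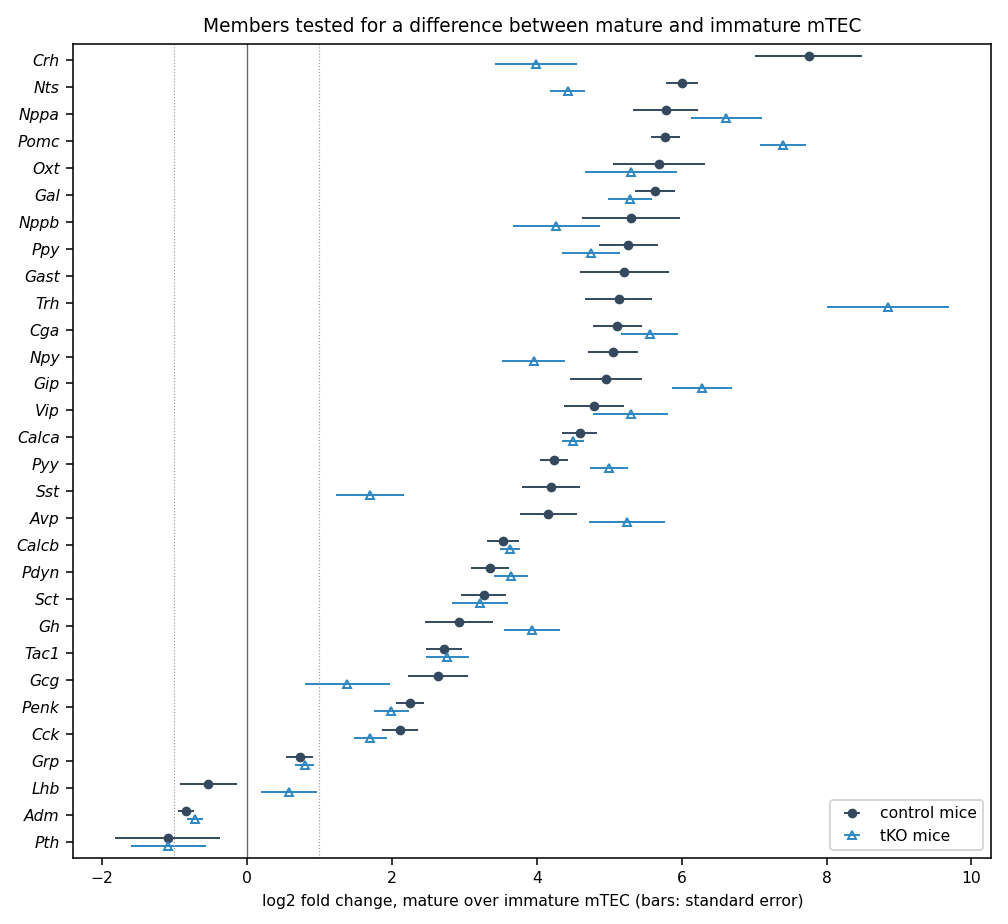
Log2 fold change of mature over immature mTEC with its standard error for the 30 members tested in control mice (circles) and the 29 tested in tKO mice (triangles), with dotted lines at the threshold of 1. All but Grp, Lhb, Adm and Pth lie right of 1, from 1.38 for Gcg in tKO mice upward.

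Among the pituitary hormones, Pomc (the precursor of corticotropin, melanotropin and endorphin) stood far apart between the populations. It had 69.5, 79.1, 68.2 and 77.1 CPM in mature mTEC of the 4 control mice and 1.71, 1.22, 1.08 and 1.20 CPM in their immature mTEC. The values within each population were close, and the log2 fold change was 5.78 ± 0.20 (SE, adjusted p = 1.76e-11, edgeR). Cga, the alpha subunit that luteinizing, follicle-stimulating and thyroid-stimulating hormones share, averaged 21.4 ± 3.25 CPM in mature against 0.568 ± 0.395 CPM in immature mTEC (SD, n = 4) and rose by 5.11 ± 0.34. The beta subunits that give these hormones their identity were lower. Tshb had 24 counts over the 4 mature control libraries and 0 over the immature ones, which makes it at least 3.89-fold higher against a floor of 3 counts over the group. Fshb had 6 counts in all and its mature level did not exceed that floor. Lhb averaged 3.62 ± 1.67 CPM in mature against 5.39 ± 2.69 CPM in immature mTEC, with overlap (log2 fold change -0.53 ± 0.39). Its immature mean was 149% of the mature mean in control mice but 63.4% in tKO mice, where it also overlapped. Gh, growth hormone, rose by 2.92 ± 0.47 on the log2 scale. Prolactin (Prl) had 6 counts in mature mTEC and was not tested.

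Of the 12 hormones of the gut and pancreas, 10 passed the filter in control mice, most of them through their mature counts, and these 10 were called higher in mature mTEC, beside 23.7% of all genes. Nts, neurotensin, had 95.7, 102, 87.1 and 85.2 CPM in the mature and 1.71, 2.04, 0 and 1.80 CPM in the immature libraries, a log2 fold change of 6.00 ± 0.22. Pyy rose by 4.24 ± 0.19, and its relative Ppy, pancreatic polypeptide, by 5.27 ± 0.40, from 0.413 ± 0.577 to 19.5 ± 1.04 CPM. These 2 genes lie next to each other on chromosome 11. The incretin hormone Gip rose by 4.95 ± 0.50 and the vasodilator Vip by 4.79 ± 0.42. Sct (secretin) and Cck (cholecystokinin), which drive pancreatic secretion, rose less, by 3.27 ± 0.31 and 2.11 ± 0.25. Gast, gastrin, had 103 counts in mature and 1 in immature control libraries, a ratio of 50.1 with a counting interval from 8.79 to 1996. Ghrl, ghrelin, was not tested and did not separate the populations, with 2.51 ± 0.314 CPM in mature against 2.34 ± 1.51 CPM in immature mTEC. The glucagon gene Gcg and the somatostatin gene Sst were called higher in both sets of mice but varied between mice. In control mice Sst rose by 4.20 ± 0.40 and Gcg by 2.64 ± 0.42. In tKO mice Sst rose by 1.70 ± 0.47 and Gcg by 1.38 ± 0.59, and DESeq2 called neither. By edgeR, Gcg was no longer called without Rbfox1 tKO replicate 2 (1.14) or either Rbfox2 tKO mouse (1.03 and 0.95).

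Of the 13 hypothalamic and brain peptides, 7 passed the filter, most in the same way, and 6 were called higher, beside the same 23.7%. Gal (galanin) rose most firmly, from 0.801 ± 0.559 to 42.5 ± 4.69 CPM, a log2 fold change of 5.63 ± 0.28. Npy, which stimulates feeding, rose by 5.06 ± 0.35, and Trh, the releasing hormone for thyrotropin, by 5.13 ± 0.46. The posterior pituitary hormones Oxt and Avp are neighbours on chromosome 2 and both rose. Avp had 11.2 ± 0.82 and 0.554 ± 0.395 CPM and rose by 4.16 ± 0.39, and Oxt had 149 counts against 1, a ratio of 72.4 with a counting interval from 12.8 to 2880. Crh, which starts the stress response, had 145 counts in mature and 0 in immature mTEC of control mice and was at least 23.5-fold higher. Its fitted log2 fold change of 7.75 is the largest of the members but depends on how a count of 0 is treated. With Crh set to its bound, the median over the members tested was 4.40. Trh had 324 counts in mature and 0 in immature mTEC of tKO mice, at least 46.2-fold higher. In control mice some rare neuropeptides were counted in mature mTEC alone. There, against the floor of 3 counts, Cartpt was at least 9.07-fold higher, Pmch at least 3.89-fold, Ucn at least 1.94-fold and Hcrt at least 1.62-fold. These folds take the mature counts as observed, and Ucn rested on 12 and Hcrt on 10 of them. Gnrh1, which starts the reproductive axis, had 1.65 ± 0.677 CPM in mature against 0.956 ± 0.955 CPM in immature mTEC and overlapped. Agrp, an antagonist of melanocortin receptors, had 31 counts against 1, a ratio of 15.1 with a counting interval from 2.51 to 614. The gut hormone Insl5 had 5 counts against 1 (interval 0.272 to 115).

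Grp, gastrin-releasing peptide, was the one tested member of the hypothalamic and brain group that was not called. It had 44.0, 34.6, 55.0 and 47.0 CPM in the mature and 31.7, 13.9, 34.7 and 31.2 CPM in the immature libraries of the same 4 control mice. Each mouse had more Grp in its mature mTEC, although the 2 ranges overlapped slightly. The log2 fold change of 0.73 ± 0.18 had an adjusted p = 2.90e-03 and stayed under the fold threshold. In tKO mice it was 0.80 ± 0.13.

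All 3 opioid and tachykinin precursors were called higher in both sets of mice, beside 23.7% of all genes in control and 23.2% in tKO mice. Of the 3, only Penk had at least 10 counts in all 8 control libraries. Pdyn (the dynorphin precursor) rose by 3.36 ± 0.26 in control and by 3.65 ± 0.24 in tKO mice. Penk (the enkephalin precursor) averaged 33.3 ± 4.16 CPM in mature against 7.18 ± 1.72 CPM in immature mTEC of control mice and rose by 2.25 ± 0.19. Tac1, the precursor of substance P, rose by 2.72 ± 0.25. The immature level of these 3 genes was 9.29%, 21.6% and 15.4% of the mature mean, whereas that of Pomc, the other opioid precursor, was 1.78%.

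Among the hormones of calcium, heart and vessels, Calca, Calcb and the natriuretic peptides rose and Adm and Pth did not. Calca had 113, 143, 133 and 136 CPM in mature against 5.14, 10.6, 3.25 and 1.20 CPM in immature mTEC of control mice. It rose by 4.59 ± 0.24 and Calcb by 3.53 ± 0.22, so the gap between the populations was wide for both. The heart hormone Nppa had 268 counts against 2 in control mice, a ratio of 65.1 with a counting interval from 17.9 to 541. Its neighbour on chromosome 4, Nppb, had 111 counts against 1, a ratio of 54.0 with an interval from 9.49 to 2150.

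Adm, which encodes the vessel-relaxing peptide adrenomedullin, was the one member that was lower in mature mTEC in all mice. In control mice it had 88.7, 119, 103 and 130 CPM in mature against 210, 207, 185 and 194 CPM in immature mTEC. In tKO mice it had 118, 114, 123 and 150 CPM in mature against 256, 197, 199 and 184 CPM in immature mTEC. No mature library reached the lowest immature one. The log2 fold change was -0.84 ± 0.11 in control (adjusted p = 9.25e-06) and -0.71 ± 0.11 in tKO mice (adjusted p = 2.66e-05), both within the fold threshold. With 1 of 2 gonadal hormones at 0 counts, the other, Amh, had 0.624 ± 0.283 and 0.461 ± 0.346 CPM and was not tested.

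The sequences before the transcription starts of several members hold the letters of a TATA box, an element that positions the start of transcription. RefSeq promoter windows (GRCm38.p6, from 250 bases before the start) were found for 35 of the 43 members, in 41 windows. Calcb, Penk, Grp, Gh, Crh, Amh, Agrp and Gnrh1 had none in the table used. The letters TATAAA were sought on the strand of the gene, wholly within the bases from 45 to 11 before the start. They were present in 31.7% of the member windows and in 2.22% of all 32851 windows. The match was found in 13 members. The following 80 bases end at the base before the start, and capitals mark TATAAA. The first 5 are members with the match, chosen to span pituitary, gut and pancreas.
Pomc: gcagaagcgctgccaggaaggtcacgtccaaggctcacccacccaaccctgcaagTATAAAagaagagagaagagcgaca
Cga: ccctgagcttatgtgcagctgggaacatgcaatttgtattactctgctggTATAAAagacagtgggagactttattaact
Vip: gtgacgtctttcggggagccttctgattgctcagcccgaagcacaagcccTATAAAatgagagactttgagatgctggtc
Ppy: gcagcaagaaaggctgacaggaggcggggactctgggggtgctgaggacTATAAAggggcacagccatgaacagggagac
Gcg: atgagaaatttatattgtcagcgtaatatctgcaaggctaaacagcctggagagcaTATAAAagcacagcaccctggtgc
Calca: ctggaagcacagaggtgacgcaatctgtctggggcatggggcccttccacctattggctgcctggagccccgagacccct
Adm: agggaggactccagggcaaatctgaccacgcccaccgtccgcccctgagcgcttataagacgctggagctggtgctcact
These stretches lie at chr12:3954865-3954944 (plus strand, Pomc), chr4:34893699-34893778 (plus, Cga), chr10:5639138-5639217 (plus, Vip), chr11:102101320-102101399 (minus, Ppy), chr2:62483654-62483733 (minus, Gcg), chr7:114636358-114636437 (minus, Calca) and chr7:110627577-110627656 (plus, Adm). Calca, which rose, and Adm, which did not, are shown because neither holds these letters. The stretch of Adm holds tataag, which differs from TATAAA in its last letter only. The match starts 25 bases before the start in Pomc, 30 in Cga and Vip, 31 in Ppy and 24 in Gcg. The cAMP response element TGACGTCA was found on either strand, anywhere in the 300 bases, for Cartpt, Sst and Ucn, in 7.32% of the member windows and 1.79% of all windows. Members did not stand out in composition, with a median of 7 CG dinucleotides in both sets of windows and a median GC content of 54.0% against 52.7%. A match describes letters only.

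The number of members detected was compared at equal depth. With each library rarefied to 1506134 counts, 38.0 to 39.8 members were expected to have at least 1 count in mature and 18.7 to 27.7 in immature mTEC. The difference within a mouse was 15.7 ± 3.19 members (SD, n = 8), between 11.6 and 19.6, and positive in 8 of 8 mice. At full depth, 38 members had a count in all 8 mature libraries and 10 in all 8 immature ones. Prl, Tshb, Fshb, Hcrt, Pmch, Ucn and Insl3 had 0 counts in all 8 immature libraries. These numbers were not computed over all genes, so whether they are particular to the members was not tested. Over all genes with a count, 20.7% were higher in all 4 mature than in all 4 immature control libraries, and 9.7% lower. The detected number also differed between the lines in immature mTEC, with 23.3 to 27.7 in the Rbfox1 and 18.7 to 21 in the Rbfox2 line.

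Pth, Gcg and Sst were present in all mature libraries but were spread unevenly over the immature libraries, where single mice held high counts. Pth, parathyroid hormone, had 5.69, 8.11, 6.75 and 6.12 CPM in mature mTEC of control mice and 41.5, 0, 16.3 and 0.599 CPM in their immature mTEC. In tKO mice its immature level was 14.8 and 32.2 CPM in the Rbfox1 line and 0 in both mice of the Rbfox2 line. Some immature libraries thus exceeded every mature one while others had 0 counts. The log2 fold change in control mice of -1.09 ± 0.72 (adjusted p = 0.198) became 0.46 without replicate 2 of the Rbfox1 controls, not past the threshold, and -1.53 without replicate 3, where it was called (adjusted p = 0.0255).

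Gcg, the precursor of glucagon and glucagon-like peptides, had between 23.3 and 33.1 CPM in all mature libraries. In immature mTEC of the Rbfox1 line it had 10.3 and 4.49 CPM in control and 1.39 and 38.3 CPM in tKO mice. In the Rbfox2 line it had 0, 1.20, 0 and 0.69 CPM. Of the 116 immature counts in all, 75 came from 1 library, replicate 3 of the Rbfox1 tKO mice. Sst, somatostatin, an inhibitor of hormone release, was 20.8 to 34.8 CPM in mature mTEC, and 28.6 CPM in 1 immature library, replicate 1 of the Rbfox2 tKO mice, with 0 to 6.13 CPM in the others. The biological coefficient of variation in immature mTEC was 0.749 for Pth, 0.635 for Sst and 0.567 for Gcg, against a median of 0.0949 over all genes. In mature mTEC the median over the members tested was 0.103, beside 0.0969 over all genes.

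Markers of the gland that makes parathyroid hormone were read beside Pth. Gcm2, which specifies the parathyroid, had 0 counts in the immature libraries of all 4 control mice and 1 count in each of the 2 Rbfox1 tKO mice. It had 0 counts in the immature library with the most Pth, 97 counts, and 7 to 12 in the mature control libraries. Casr, the calcium-sensing receptor gene, was 80.9 to 89.0 CPM in immature mTEC of control mice and 64.8 to 90.4 CPM in tKO mice. The sum of both markers was 80.9 to 89.0 CPM in immature and 52.0 to 79.7 CPM in mature control libraries.

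**Figure D3:**
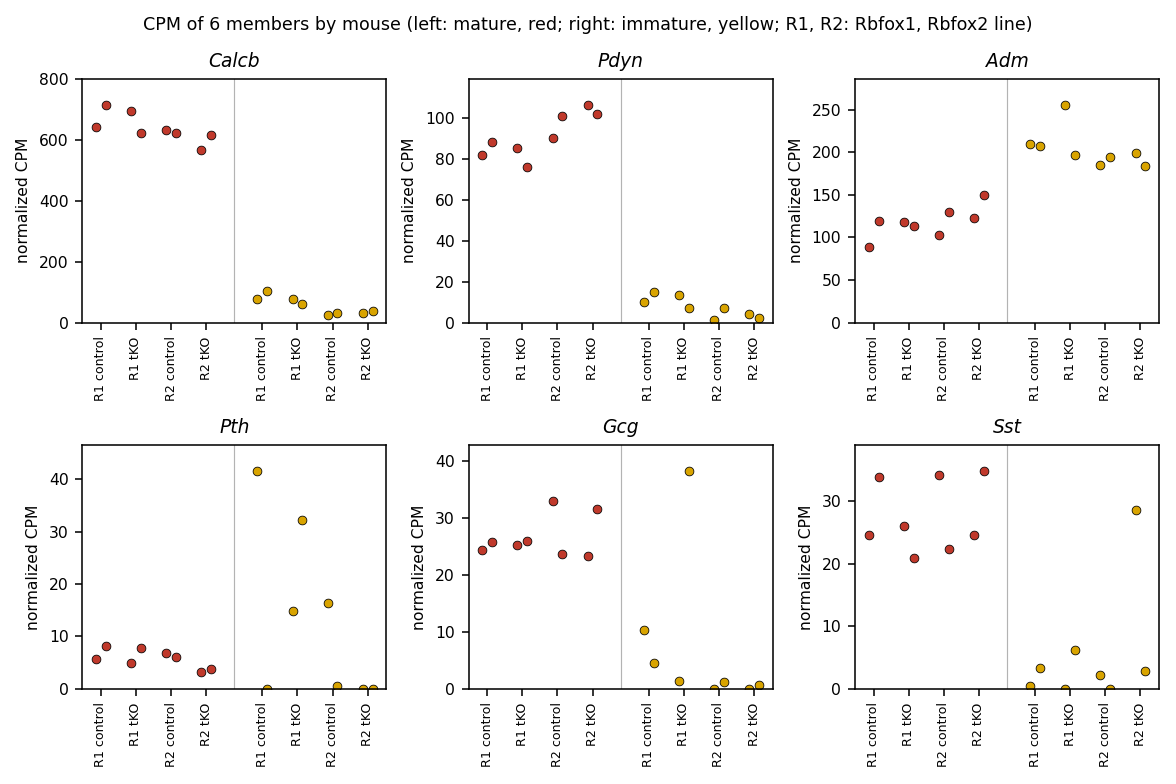
Normalized CPM of Calcb, Pdyn, Adm, Pth, Gcg and Sst in each mouse, with mature mTEC on the left (red) and immature mTEC on the right (yellow) of each panel, 1 point per library and 2 mice per condition. Calcb and Pdyn separate the populations, Adm is higher in immature mTEC, and Pth, Gcg and Sst are high in single immature libraries.

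The next question was whether loss of RBFOX1 or RBFOX2 in thymic epithelial cells changed the members. None of them passed the edgeR test in either line or population. In mature mTEC 34 members were tested and 0 called in Rbfox1 tKO mice (all genes 0.0166%). By edgeR 0 had an unadjusted p under 0.05 (all genes 3.35%), and DESeq2 called 0. In Rbfox2 tKO mice 0 of the 34 were called (all genes 0.0277%), and DESeq2 called 0. By edgeR 3 had an unadjusted p under 0.05 (all genes 5.34%). These 3 were Nts (-0.28 ± 0.10, adjusted p = 0.824), Pmch (1.54 ± 0.61, adjusted p = 0.861) and Pth (-0.89 ± 0.36, adjusted p = 0.863). Nts had 87.1 and 85.2 CPM in the Rbfox2 control and 72.0 and 70.3 CPM in the tKO mice, which did not overlap, and Pmch rested on 4 to 15 counts per library. Calcb differed by -0.04 ± 0.08 in the Rbfox1 and by -0.09 ± 0.08 in the Rbfox2 line. The differences over the 34 members ran from -0.58 to 0.47 in the Rbfox1 line and from -1.08 to 1.54 in the Rbfox2 line, and their median size was 0.15 and 0.19, beside 0.13 and 0.14 over all genes.

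**Figure D4:**
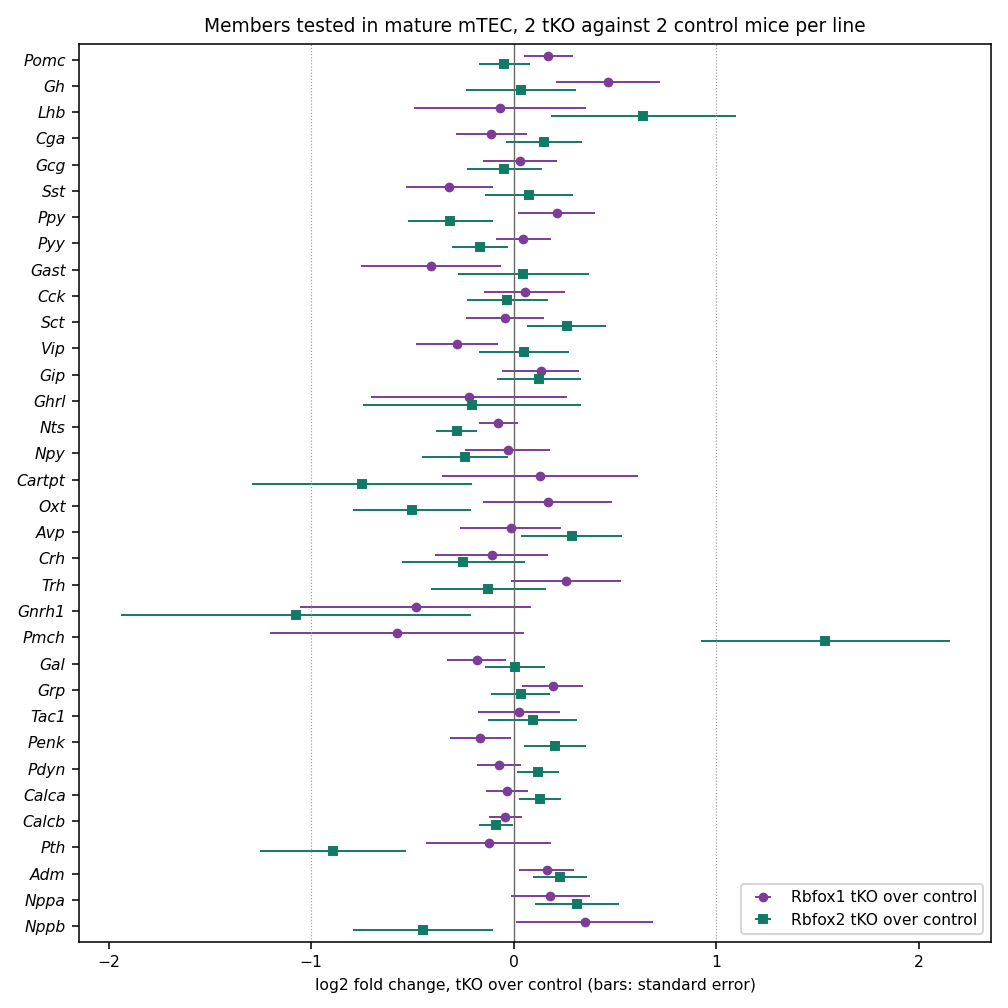
Log2 fold change of tKO over control mice with its standard error in mature mTEC for the 34 members tested, with circles for the Rbfox1 and squares for the Rbfox2 line and dotted lines at 1 and -1. Members with high counts such as Calcb and Calca lie near 0 with short bars, and Pmch and Gnrh1 have the widest bars.

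In immature mTEC only 11 members had enough counts to be tested. Of these 0 were called in Rbfox1 tKO mice (all genes 0.0306%), with Calcb alone at an unadjusted p under 0.05 (-0.40 ± 0.17, adjusted p = 0.818). In Rbfox2 tKO mice 0 were called (all genes 0.0536%), with Sst alone at an unadjusted p under 0.05 (3.73 ± 1.19, adjusted p = 0.603). DESeq2 called 0 in both lines. Over all genes, 5.9% in Rbfox1 and 6.25% in Rbfox2 tKO mice had an unadjusted p under 0.05. By edgeR or DESeq2, the tKO effects did not differ between the lines for any member at an adjusted p under 0.05. Of all genes, edgeR called 0.00555% in mature and 0.00766% in immature mTEC. In each population 1 member had an unadjusted p under 0.05 (all genes 4.66% in mature and 4.43% in immature mTEC). Nor did the difference between mature and immature mTEC vary with genotype for any of the 32 members tested (all genes 0%). Here 3 had an unadjusted p under 0.05 (all genes 5.2%), and DESeq2 called 0. With the mouse as a replicate block, Sst alone passed this last test (-2.31, adjusted p = 0.0220), where 41 of its 57 immature counts in tKO mice came from 1 library. A p that misses the threshold with 2 mice against 2 does not show that the genotypes are alike.

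The 2 lines were also compared over both genotypes, a comparison that was added after the values had been seen. In immature mTEC, 4 of 11 members were called higher in the 4 mice of the Rbfox1 than in the 4 of the Rbfox2 line (all genes 3.15%) and 0 lower by edgeR (all genes 1.91%). They were Calcb (1.34 ± 0.15, adjusted p = 1.08e-05), Pdyn (1.68 ± 0.42, adjusted p = 9.03e-03), Gcg (4.56 ± 1.10, adjusted p = 6.55e-03) and Pth (4.86 ± 1.51, adjusted p = 0.0297). Pdyn, Gcg and Pth passed the filter on low counts only through the Rbfox1 line, where they are high. The count of members called therefore describes the members and is no separate evidence. Of the 4, only Calcb had at least 10 counts in every immature library. Calcb had 59.7 to 105 CPM in the Rbfox1 and 24.4 to 37.3 CPM in the Rbfox2 line, with no overlap. Pdyn had 7.15 to 15.1 and 1.08 to 7.19 CPM, which overlap slightly. DESeq2 called 3, all but Pth, and in control mice alone Calcb was the only one called (1.68). Gcg was no longer called without replicate 3 of the Rbfox1 tKO mice (2.68, adjusted p = 0.0967), nor Pdyn without replicate 2 of those mice (1.42). Pth was called neither without replicate 2 of the Rbfox1 controls, which moved its value to 0.71, nor without replicate 3 of the Rbfox1 tKO mice, replicate 2 of the Rbfox2 controls or either Rbfox2 tKO mouse (4.43 to 4.89). In mature mTEC 0 of 34 members were called higher (all genes 0.794%) or lower (all genes 0.25%) by edgeR or DESeq2. Of the 34, 11 had an unadjusted p under 0.05, beside 27.9% of all genes. Calcb there differed by 0.13 ± 0.06.

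Some markers moved with the line as well. The summed level of the 6 mature markers overlapped between the lines in immature mTEC, with 2860 to 3356 CPM in the Rbfox1 and 2895 to 3349 CPM in the Rbfox2 line. Within that list, Aire and Cd80 were called higher in the Rbfox1 line, and H2-Aa differed the other way by -0.19 ± 0.07. Aire had 211 to 298 CPM in immature mTEC of the Rbfox1 and 19.5 to 53.9 CPM of the Rbfox2 line, and in mature mTEC 1225 to 1568 and 634 to 901 CPM. Cd80 had 28.7 to 34.7 and 4.19 to 13.0 CPM in immature mTEC. The summed level of 4 fibroblast markers was 280 to 557 CPM in the Rbfox1 and 1417 to 2120 CPM in the Rbfox2 line in immature mTEC, and that of 3 endothelial markers 19.3 to 51.4 and 58.1 to 183 CPM. The part of these in the line differences of Calcb, Pdyn, Gcg and Pth was not tested, and the line cannot be told apart from the colony or the time of collection.

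Genes that act with the members were read from lists in the same comparison of mature with immature mTEC in control mice. Over all genes tested there, 23.7% were called higher and 10.8% lower. List genes that are rare in immature mTEC passed the filter only through their mature counts. The counts and medians below therefore describe the lists and are no separate evidence. Of 11 genes that process prohormones, 9 were tested, 1 was higher and 1 lower, with a median log2 fold change of -0.00. Pcsk2, a convertase of endocrine cells, rose by 3.04 ± 0.37 and the convertase gene Pcsk6 fell by 1.78 ± 0.22. Of 11 secretory granule genes, all tested, 5 were higher and 1 lower. Vgf, a granule protein that is itself cut into peptides, rose by 4.93 ± 0.33, Cadps, which primes granules for release, by 2.87 ± 0.11, and Resp18 by 2.09 ± 0.19, while the granin gene Chgb fell by 1.17 ± 0.21.

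Of 16 transcription factors of neuroendocrine cells, 7 were tested, 3 higher and 2 lower. Lhx3, a factor of the pituitary, had 99 counts against 0 and was at least 16-fold higher, Neurog3 had 103 counts against 3 (ratio 16.7, counting interval 5.55 to 82.2) and Insm1 rose by 1.98 ± 0.21. Isl1 fell by 1.67 ± 0.12. Of 53 receptors for these hormones, 23 were tested, 13 higher and 3 lower. The neurotensin receptor Ntsr1 was at least 45.5-fold and the Trh receptor Trhr at least 22.0-fold higher, with 0 immature counts in control mice, and the calcitonin receptor Calcr had 490 counts against 1 (ratio 238, counting interval 42.5 to 9426). The vasopressin receptor Avpr1a fell by 2.73 ± 0.32, the somatostatin receptor Sstr2 by 2.08 ± 0.26 and the growth hormone receptor Ghr by 1.10 ± 0.18. Of 29 further peptide hormone genes outside the members, 16 were tested, 12 higher and 1 lower, with a median of 4.57. Nms was at least 21.5-fold and Rln1 at least 13.8-fold higher, and Rln3 (relaxin 3) rose by 6.81 ± 0.34, whereas Pthlh, parathyroid hormone-related peptide, fell by 2.42 ± 0.15. In tKO mice the same lists had 1 higher and 1 lower of 9 tested (processing), 5 and 1 of 10 (granule), 3 and 3 of 7 (transcription factors), 14 and 5 of 25 (receptors) and 12 and 1 of 16 (further hormones). Over all genes tested in tKO mice, 23.2% were called higher and 11.5% lower.

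Markers of other cell types were read in the same way in control mice, with the same limit of the filter. The shares over all genes were again 23.7% higher and 10.8% lower. Of 4 thyroid markers, all tested, 3 were higher in mature mTEC, Tg by 4.49 ± 0.31 and Pax8 with 0 counts in the immature libraries, and the sum was 41.1 to 58.9 CPM against 4.19 to 7.59 CPM. All 4 nerve and glia markers were higher, with sums of 29.1 to 43.6 and 1.63 to 7.35 CPM. Of 6 markers of thymocytes and blood cells 3 were tested and higher, with sums of 47.7 to 57.7 and 3.43 to 23.3 CPM. Of the fibroblast markers 3 of 4 were lower, with sums of 310 to 387 and 280 to 1638 CPM, as were 3 of 3 endothelial markers, with 22.1 to 22.8 and 19.3 to 105 CPM. Of the 4 tuft cell markers 3 were lower, with 140 to 222 and 385 to 733 CPM. Their part in the differences of the members was not tested.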

How the data were processed

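RNA was sequenced as stranded, paired-end poly(A) libraries by Illumina. The authors deposited whole-number counts of reads per gene in 1 table for the 16 libraries, not normalized, after removing duplicates and down-sampling. Tools listed in the submitters' processing notes were featureCounts 1.6.0, HISAT2 2.1.0 and Picard 2.10.9, with the build mm10. Names, positions and exon lengths came from GENCODE M21, promoters from RefSeq.

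Tests across all genes used edgeR 4.0.16 under R 4.3.3 (TMM, filterByExpr at a minimum count of 10, quasi-likelihood test). Calls needed an adjusted p (Benjamini-Hochberg) under 0.05 together with a log2 fold change beyond 1 or -1, or the adjusted p alone for differences between effects. SE is the log2 fold change over the root of F. The maturation fits had line as a covariate, and the tKO fits a mean per condition over the 8 libraries of a population. The scripts were tested on simulated data. The members and lists were chosen with earlier results of these data known. Named were members called or tested, and up to 3 called genes per list and direction with the largest change; some genes of the lists are not reported here.

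Replicates are separate mice. Mature and immature libraries of a number share a mouse, and their deviations from the group means correlated by 0.116 to 0.213. Sex-matched tKO and control mice of a number correlated by 0.0534 to 0.204. Replicates differed by more than counting noise (chi-square per degree of freedom 1.87 to 3.00). Counting intervals are exact at a confidence level of 0.95 and cover counting error only. Floors cover only the counting error of 0 counts in immature mTEC. Folds given as at least a value set the observed mature counts against the floor and leave out the counting error of those mature counts. Alternatives were DESeq2 1.42.0, other scalings and filters, no fold threshold, a replicate block, thinned counts, other sets of libraries and each mouse or library left out.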

Additional observations from a re-analysis of the deposited data

Results flagged for a closer look

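Member levels were compared within each set of 4 libraries of a genotype and population, in 118 such sets over the members tested in control mice. In 16 of them 1 library stood apart from the other 3 by more than 0.829 of the whole range (Dixon's criterion). A set in which 1 library alone holds counts is flagged whatever the count, so no rate expected by chance is given. In 7 sets the library that stood apart held only 1 or 2 counts or 0 counts. These were, in CPM, Gast (0.408) and Nppb (0.408) in Rbfox1 control replicate 3, Oxt in Rbfox1 control replicate 2 (0.428) and Rbfox1 tKO replicate 2 (0.463), Vip (1.02) and Nppa (0.511) in Rbfox1 tKO replicate 3, and Nts in Rbfox2 control replicate 1 (0), all in immature mTEC.

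The others rested on more counts. In immature mTEC, Gcg was 38.3 CPM in Rbfox1 tKO replicate 3, against 0 to 1.39 CPM in the other tKO mice. Rbfox1 control replicate 3 had 2.45 CPM of Gip, where the other controls had 0, 1.63 CPM of Gal, against 0.428 to 0.599 CPM, and 13.9 CPM of Grp, against 31.2 to 34.7 CPM. In mature mTEC, Rbfox2 tKO replicate 2 was above the other tKO mice for Cck (25.4 against 18.1 to 19.3 CPM), Sct (22.4 against 17.8 to 18.0 CPM) and Grp (58.4 against 44.8 to 46.0 CPM). Cck was also high in Rbfox2 control replicate 2, at 25.7 against 18.1 to 19.1 CPM. Tac1 was 23.4 CPM in Rbfox1 tKO replicate 2, against 15.7 to 16.5 CPM in the others. What set these libraries apart was not tested.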

How the results depend on the processing

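The number of members called higher in mature mTEC was within 1.5 times its value under all alternatives but 1. With at least 10 counts required in every library it was 2 in control (4 members tested) and 1 in tKO mice (3 tested), since the other members are too rare in immature mTEC. It was 26 and 25 with the mouse as a replicate block, and the block changed no other call but that of Sst, 1 member called for the difference of the maturation effect between genotypes. Without a fold threshold Adm was called lower, 1 member each in control and tKO mice. Without a filter 1 member, Pth, was called lower in tKO mice. Leaving out 1 mouse gave 0 to 2 members called lower in control mice (Lhb at -1.07 and Pth at -1.53 without Rbfox1 control replicate 3) and 0 to 1 in tKO mice (Pth without either Rbfox2 tKO mouse). Pth changed its sign in control mice without Rbfox1 control replicate 2 (0.46), and in tKO mice by DESeq2 (0.73) and with all 16 libraries in 1 fit (2.30), none past the threshold. Gcg and Sst in tKO mice were not called by DESeq2 (adjusted p = 0.0585 and 0.130).

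Without a filter, and thus among genes with few counts, 1 member was called higher in immature mTEC of Rbfox1 tKO mice (Gcg, 1.39), 1 higher and 1 lower in Rbfox2 tKO mice (Sst, 3.70, and Pth, -7.07), 1 lower for the difference between the lines (Pth) and 1 lower for the difference of the maturation effect (Sst). Between the lines, 1 higher (Nts) and 1 lower (Pdyn) were called in mature mTEC without a fold threshold, and 1 higher without a filter. In immature mTEC the 4 called higher became 5 with library totals (with Calca), 6 without a filter (with Calca and Ghrl), 1 with at least 10 counts in every library or in control mice alone, and 2 to 4 when 1 library was left out, with 0 to 1 called lower. The cause was not tested. The difference in members detected was 20.9 at a minimum of 5 counts. Depth limits the immature libraries, where most members had fewer than 10 counts.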
